A study of Mus musculus with 235 samples.

Results

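Zbtb16 (ENSMUSG00000066687) is 1 of the 27998 genes counted in this study, and its row of the count table was found by mapping the Ensembl identifiers to gene symbols. In that table its exons lie on the minus strand of mouse chromosome 9 between positions 48654311 and 48835945 (mm10 build), as 7 exons with 5100 bases in all. GENCODE M21 lists 2 transcripts of the gene, both with a coding sequence of 2019 bases. No other gene of the count table or of GENCODE M21 overlaps this span, so the reads do not have to be divided between overlapping genes.

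Zbtb16 encodes PLZF, a transcription factor with a BTB/POZ domain, through which it forms dimers and binds corepressors, and a row of zinc fingers that bind DNA. It is known as a glucocorticoid-induced gene in several tissues, as a regulator of natural killer T cells and spermatogonial stem cells, and as a fusion partner of the retinoic acid receptor alpha gene in a rare form of leukaemia. Dexamethasone, the drug used here, is a synthetic agonist of the glucocorticoid receptor, a hormone-activated transcription factor encoded by Nr3c1.

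Adult male C57Bl/6 mice, 3 months old and with no genetic change named in the labels, received 1 intraperitoneal injection. The 15 animals of the DEX arm were given dexamethasone at 10 mg per kg and the 15 animals of the CNTRL arm were given saline, and brains were collected after 4 h. Tissue punches of 8 regions, labelled PVN, AMY, CER, PFC, vDG, vCA1, dCA1 and dDG and used here under those names, each gave 1 library of 3' RNA ends with molecular identifiers. There were 118 CNTRL and 117 DEX libraries, and 26 of the 30 animals had all 8 regions. A punch holds many cell types, so fewer cells of a type and less RNA per cell cannot be told apart.

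Library totals ranged from 268538 to 1451422 counts with a median of 742957. Some libraries went against their region labels. CER libraries held almost no Gabra6 of granule cells or Pcp2 of Purkinje cells, which the label would call for if it meant cerebellum. Each had counts in 4 of 30. Gabra6, Pcp2 and Cbln3 together passed 20 CPM (counts per 1000000 counts, scaled between libraries) in 10 of 30 vDG libraries, up to 1049 CPM. They did so in 1 library each of CER, PFC and vCA1, where the vCA1 library reached 805 CPM. A cerebellar sum of 6 genes, with Cbln1, En2 and Zic1 added, was not near 0 in CER. Its CNTRL median was 82.2 CPM in CER, between 39.5 CPM in vCA1 (lowest) and 387 CPM in PVN (highest). The dentate granule cell gene Prox1 was as high in dCA1 (514 ± 145 CPM, SD, n = 15 CNTRL libraries) as in dDG (455 ± 253 CPM, SD, n = 15), so the dCA1 and dDG punches were not separated by it. Choroid plexus markers ranged from 43.8 to 11339 CPM within dDG CNTRL libraries.

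The first question was how much Zbtb16 RNA each region held in saline-treated animals. The CNTRL mean was lowest in PVN at 14.7 ± 6.54 CPM (SD, n = 14) and highest in dDG at 51.7 ± 20.8 CPM (SD, n = 15), a ratio of 3.52. AMY (17.9 ± 10.2 CPM, SD, n = 15) and CER (22.2 ± 9.36 CPM, SD, n = 15) were next above PVN. The other hippocampal punches and PFC lay between, with 33.5 ± 7.05 CPM in PFC (SD, n = 15), 38.8 ± 9.43 CPM in vDG (SD, n = 15), 39.8 ± 12.2 CPM in vCA1 (SD, n = 14) and 41.8 ± 10.05 CPM in dCA1 (SD, n = 15). Regions thus fell into a low group of PVN, AMY and CER and a higher group of the other 5.

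All 28 pairs of regions were compared within CNTRL animals by an exact two-sided sign-flip permutation test of the log2 CPM difference, with Benjamini-Hochberg adjustment over the 28 pairs. Levels differed in 21 pairs (22 before adjustment). PVN, AMY and CER were each lower than every one of the other 5 regions. Within the low group, PVN and AMY were not distinguished, with AMY higher by 0.20 ± 0.18 log2 (SE, n = 14 animals, exact permutation test, adjusted p = 0.336), while CER was higher than PVN by 0.52 ± 0.15 log2 (SE, n = 14, exact permutation test, adjusted p = 0.0109). AMY minus CER was -0.37 ± 0.15 log2 (SE, n = 15, exact permutation test, adjusted p = 0.0449).

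Among the higher 5 regions, neighbours in the order of means were not distinguished. PFC minus vDG was -0.19 ± 0.12 log2 (SE, n = 15, exact permutation test, adjusted p = 0.174), and vCA1 minus vDG was 0.03 ± 0.08 log2 (SE, n = 14, exact permutation test, adjusted p = 0.686). The step from dCA1 to dDG, the highest mean, was also within the error (dCA1 minus dDG -0.24 ± 0.13 log2, SE, n = 15, exact permutation test, adjusted p = 0.113). dDG did exceed PFC by 0.53 ± 0.12 log2 and was higher in 14 of 15 animals (SE, exact permutation test, adjusted p = 0.00139), and it also exceeded vDG and vCA1, while dCA1 exceeded PFC (adjusted p between 0.0408 and 0.0449).

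After dexamethasone, Zbtb16 RNA rose in all 8 regions, from 1.75-fold in dDG to 4.45-fold in PVN as a ratio of mean CPM. The question was whether the change exceeded the spread between animals in each region. In PVN, the 14 CNTRL libraries ran from 6.62 to 28.4 CPM with a median of 12.4, and the 15 DEX libraries ran from 41.4 to 81.8 CPM with a median of 70.1. Every PVN library of the DEX arm was above every one of the CNTRL arm. The fitted log2 fold change in PVN was 2.21 ± 0.15 (SE; edgeR quasi-likelihood test, adjusted p = 1.13e-15), rank 8 of 9273 genes tested there.

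In AMY, CNTRL libraries ran from 2.09 to 37.95 CPM (median 17.0) and DEX libraries from 30.6 to 97.8 CPM (median 67.9). The arms touched at 1 DEX library, which was under the highest CNTRL library. AMY had the largest relative rise after PVN, with a log2 fold change of 1.97 ± 0.20 (SE; edgeR, adjusted p = 9.0e-10) and rank 10 of 8611 genes. The order of the 3 largest rises depended on the processing: with counts thinned to a common total it was AMY (2.08), CER (1.97) and PVN (1.89). In CER, CNTRL libraries ran from 6.85 to 43.8 CPM (median 19.9) and DEX libraries from 47.5 to 114.9 CPM (median 81.9). The CER arms did not overlap, and the log2 fold change was 1.80 ± 0.15 (SE; edgeR, adjusted p = 2.59e-12).

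The PFC and vDG punches also had no overlap between arms. In PFC, CNTRL libraries ran from 20.2 to 43.3 CPM (median 31.7) and DEX libraries from 68.8 to 94.2 CPM (median 75.5), a log2 fold change of 1.22 ± 0.10 (SE; edgeR, adjusted p = 2.01e-13). In vDG, CNTRL libraries ran from 21.2 to 54.0 CPM (median 40.4) and DEX libraries from 74.7 to 109.0 CPM (median 93.6), a log2 fold change of 1.25 ± 0.10 (SE; edgeR, adjusted p = 3.84e-11). Without the 10 vDG libraries that carried cerebellar markers, the vDG value was 1.16 (adjusted p = 3.46e-08). Of all genes tested, the share whose DEX libraries were all above their CNTRL libraries was 0.367% in PVN, 0.564% in CER, 0.326% in PFC and 0.193% in vDG, and 0.348% in AMY, 0.195% in dCA1, 0.0936% in dDG and 0.285% in vCA1.

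The smallest relative rises were in the other hippocampal punches, where the arms overlapped. In vCA1, CNTRL libraries ran from 25.9 to 63.3 CPM (median 33.8) and DEX libraries from 56.8 to 111.7 CPM (median 85.7), with 4 DEX libraries under the highest CNTRL library and a log2 fold change of 1.02 ± 0.13 (SE; edgeR, adjusted p = 1.84e-07). In dCA1, CNTRL libraries ran from 18.4 to 56.2 CPM (median 42.8) and the 13 DEX libraries from 50.5 to 105.3 CPM (median 84.2), with 1 DEX library in the CNTRL range and a log2 fold change of 0.93 ± 0.13 (SE; edgeR, adjusted p = 2.61e-06). In dDG, CNTRL libraries ran from 27.4 to 101.3 CPM (median 45.7) and DEX libraries from 58.7 to 145.9 CPM (median 87.7). The highest dDG control thus stood above 10 of the 15 DEX libraries, while the DEX animal was the higher in all 15 pairs of animals with the same number in the labels. The log2 fold change was 0.82 ± 0.15 (SE; edgeR, adjusted p = 0.000363).

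Same-numbered CNTRL and DEX libraries of a region shared the plate in 115 of 115 pairs and the punching date in 109, and Zbtb16 was higher in the DEX library in 114 of 115. The exception was 1 of 13 pairs in dCA1. Zbtb16 was called higher in 8 of 8 regions. The share of all tested genes called higher was 3.54% in AMY, 3.9% in CER, 2.57% in dCA1, 2.33% in dDG, 3.86% in PFC, 3.57% in PVN, 3.41% in vCA1 and 2.64% in vDG. By the size of its log2 fold change, Zbtb16 ranked between 8 (PVN) and 58 (vCA1) in its region. Libraries had been punched on 5 dates and prepared on 4 plates, and the DEX mean was above the CNTRL mean in 32 of 32 combinations of region with date (4 dates with enough animals of both arms) and in 32 of 32 combinations of region with plate. Differences in log2 CPM ran from 0.65 to 2.38 within dates and from 0.63 to 2.23 within plates.

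**Figure D1:**
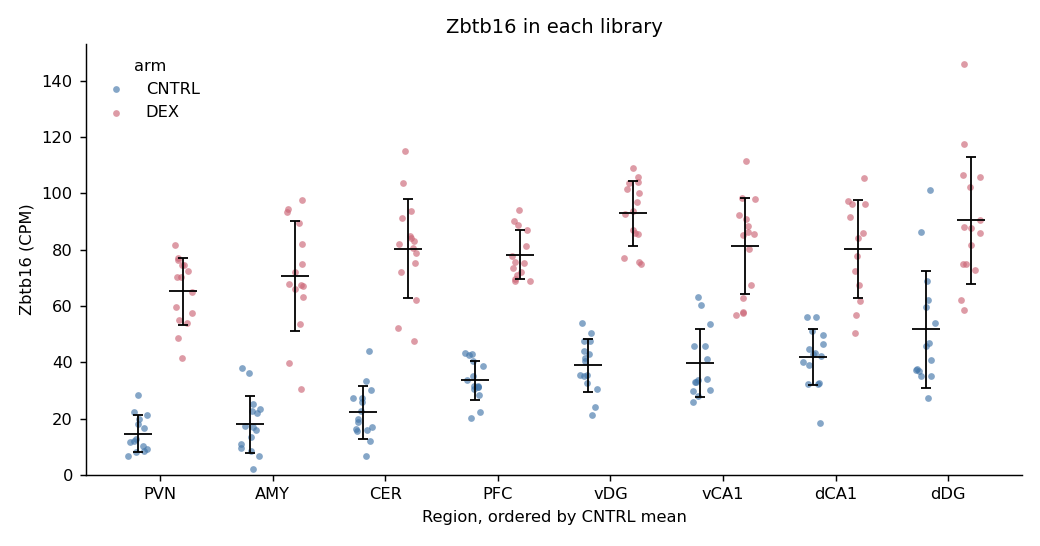
Zbtb16 level in CPM (vertical axis, from 0) in each library of the CNTRL (blue) and DEX (red) arms, by region in order of the CNTRL mean; points are libraries, and black lines are the mean ± SD. CNTRL means climb from 14.7 CPM in PVN to 51.7 CPM in dDG, while DEX means lie between 65.2 and 92.9 CPM.

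The levels reached after dexamethasone differed less between regions than the saline levels did. The highest DEX mean, 92.9 ± 11.4 CPM in vDG (SD, n = 15), was 1.42 times the lowest, 65.2 ± 11.9 CPM in PVN (SD, n = 15), against 3.52 times in the CNTRL arm. The other DEX means were 70.6 ± 19.4 CPM in AMY, 78.2 ± 8.67 in PFC, 80.2 ± 17.4 in dCA1, 80.4 ± 17.7 in CER, 81.3 ± 17.0 in vCA1 and 90.4 ± 22.6 in dDG (SD, n = 13 in dCA1, 14 in PFC and 15 elsewhere). In the same exact sign-flip test over DEX animals, added after the data had been seen, 8 of 28 pairs differed (11 before adjustment). Of these, 6 involved PVN, which was lower than each of the other regions except AMY, and the others were vDG above AMY and vDG above PFC. Only 3 of the 28 pairs differed when counts were thinned to a common total.

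As an absolute change, Zbtb16 gained between 38.4 and 58.2 CPM in each region. The gain was 38.4 ± 5.47 CPM in dCA1 (SE), 38.7 ± 7.93 CPM in dDG and 41.5 ± 5.47 CPM in vCA1. It was 44.6 ± 2.95 CPM in PFC, 50.5 ± 3.53 CPM in PVN and 52.8 ± 5.67 CPM in AMY (SE). It was largest in vDG, at 54.0 ± 3.82 CPM, and CER, at 58.2 ± 5.17 CPM (SE). By two-sided permutation tests of the arms, p was 1e-05 in 7 regions, the smallest that 100000 permutations can give, and 6e-05 in dDG. The order of regions by gain was not the order by fold: PVN, rank 1 by log2 fold change, was rank 4 of 8 by CPM gained, and vDG, rank 4 by fold, was rank 2 by gain.

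**Figure D2:**
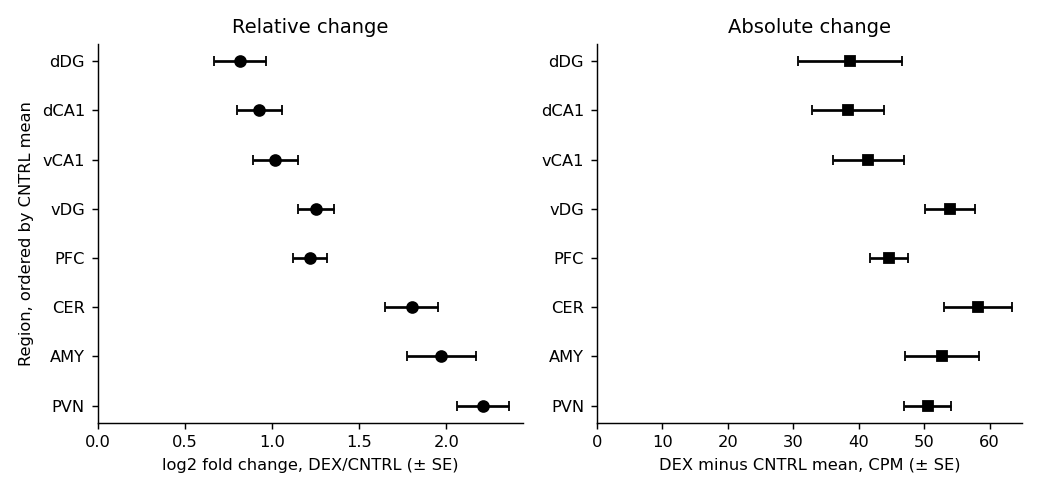
Change of Zbtb16 with dexamethasone in each region, as the edgeR log2 fold change ± SE (left) and as the difference of mean CPM ± SE (right); regions are stacked from the lowest CNTRL mean (bottom) to the highest (top). The relative change falls from 2.21 in PVN to 0.82 in dDG, and the absolute change stays between 38.4 and 58.2 CPM.

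Whether the response differed among regions was tested in 1 edgeR model of all libraries with the animal as a block. The region-by-arm terms of Zbtb16 were significant (F = 15.3, adjusted p = 8.49e-13), which placed the gene at rank 6 of 11053. The share of these genes past the threshold was 1.27% (140 genes). That model is relative, as it fits log ratios. In the 26 animals with all 8 regions, a permutation test of the arms, added after the data had been seen, gave an SD over regions of 0.496 for the log2 response (p = 1e-05, the smallest possible) and of 7.67 CPM for the absolute response (permutation p = 0.0521). When arms were instead exchanged within same-numbered pairs (11 pairs of animals with all regions), the SD was 0.490 for the log2 response (exact permutation p = 0.000977, the smallest possible) and 8.39 CPM for the absolute response (exact permutation p = 0.0146). Relative responses thus differed among regions in both tests, and absolute responses passed the threshold only in the test that kept the pairs.

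Single pairs of regions were then compared on both scales. For each pair, the within-animal difference between regions was compared between arms by a two-sided permutation test (27 to 30 animals), with adjustment over 28 pairs. The relative response differed in 17 pairs. PVN, AMY and CER each had a larger relative response than each of PFC, vDG, vCA1, dCA1 and dDG, which accounts for 15 of them, and the others were PFC above dDG and vDG above dDG. The largest was dDG minus PVN, at -1.19 ± 0.17 log2 (SE, n = 29, permutation test, adjusted p = 7.0e-05).

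Within the low-level group, relative responses were not distinguished: AMY minus CER was 0.16 ± 0.22 log2 (SE, n = 30, permutation test, adjusted p = 0.551), AMY minus PVN was -0.12 ± 0.23 (SE, n = 29, adjusted p = 0.655) and CER minus PVN was -0.24 ± 0.17 (SE, n = 29, adjusted p = 0.221). On the CPM scale, 0 of 28 pairs passed after adjustment in this permutation test, and 6 had an unadjusted p under 0.05. The pair nearest to the threshold was CER minus dCA1, at 19.9 ± 6.22 CPM (SE, n = 28, permutation test, p = 0.0034, adjusted p = 0.0952). With same-numbered animals as pairs, 0 of 28 passed again (exact sign-flip test), with 11 at an unadjusted p under 0.05 and a smallest adjusted p of 0.0513. With library totals in place of the scaling factors, 2 pairs passed. PVN minus dDG, the extreme pair in log2, was 11.1 CPM (SE 8.17) with an adjusted p of 0.319 in the permutation test, and 12.8 CPM (SE 5.09) with an adjusted p of 0.0746 in the exact paired test. The log2 difference between PVN and dDG had the same sign in each of the 4 dates and 4 plates, from 0.67 to 1.50.

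**Figure D3:**
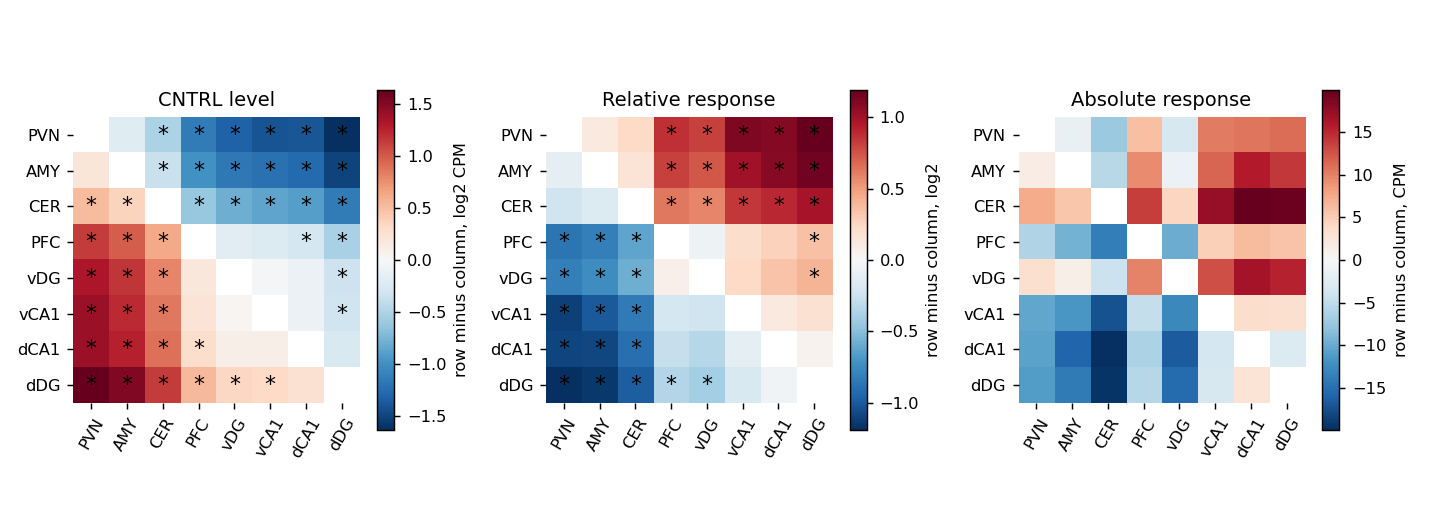
Differences in Zbtb16 between all pairs of 8 regions (row minus column): CNTRL level in log2 CPM (left), relative response in log2 (middle) and absolute response in CPM (right), with an asterisk where the adjusted p was under 0.05. Asterisks mark 21, 17 and 0 of 28 pairs; the response panels subtract the CNTRL differences of the left panel, so the panels are not independent.

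The spread between libraries differed among groups. The coefficient of variation was highest in AMY CNTRL libraries, at 57.3%, and lowest in PFC DEX libraries, at 11.1%. It was 44.6% in PVN, 42.2% in CER and 40.3% in dDG CNTRL libraries, so the lowest and the highest saline levels had similar relative spread. Counts behind these values were small: the median library held 11 counts of Zbtb16 in PVN CNTRL and 70 in vDG DEX. The variance that counting alone would give was 18.3% of the observed variance in dDG CNTRL libraries and 25.7% in AMY CNTRL libraries. In PFC DEX and vDG DEX libraries it was 144.9% and 99.5%, so the spread there was no wider than counting error. RNA integrity also differed by region. Its mean was 7.75 in PFC CNTRL and 7.81 in PFC DEX libraries. In the other groups it ran from 5.69 (AMY DEX) to 6.69 (vCA1 CNTRL). Its part in the differences of spread between regions was not tested.

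Deviations were then compared between regions of the same animal. Each log2 CPM value was taken as a deviation from its region and arm mean, so that the drug and the region drop out. Over the 28 pairs of regions, the correlation of deviations between regions of the same animals was positive in 25, with a median Pearson r of 0.33 (range -0.22 to 0.61), given as a description since pairs share animals. In CNTRL animals the median r was 0.43 with 26 of 28 positive, and in DEX animals it was 0.06 with 15 of 28 positive. The animals with replicate numbers CNTRL 1 and CNTRL 3 were above their group mean in 8 of 8 regions and CNTRL 10 in 7 of 8, with mean deviations of 0.53, 0.52 and 0.53 log2. The animal CNTRL 4 had the lowest mean deviation, -0.64 log2, and was above the group mean in 1 region. The mean deviations of same-numbered CNTRL and DEX animals had the same sign in 11 of 15 pairs. Such animals shared the plate in each region and mostly the date. Plate and date did not coincide with single animals. The regions of CNTRL 3 lay on plates 1 to 4, and CNTRL animals of date 1 had mean deviations from -0.64 to 0.53 log2. The part of plate and date in these deviations was not tested.

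DEX animals lay in a narrower band, from -0.16 to 0.22 log2. The mean absolute deviation was 0.256 log2 in CNTRL and 0.0896 log2 in DEX animals (two-sided permutation test over 30 animals, p = 0.0076), a test added after the data had been seen. In CPM the same quantity was 5.55 in CNTRL and 5.17 in DEX animals (permutation p = 0.804), so the arms differed in relative but not detectably in absolute spread. Counting error is also larger in log2 units at the lower CNTRL counts, and its part in this was not tested. RNA integrity, library total and body weight were compared with the deviation over 30 animals by permutation within arm. RNA integrity gave r = -0.30 (p = 0.137) and rho = -0.26 (p = 0.164), with r = -0.32 without the 2 animals farthest from the median. Library total (r = -0.07, p = 0.747; rho = -0.04, p = 0.832; r = 0.04 without 2) and body weight (r = -0.11, p = 0.621; rho = -0.22, p = 0.255; r = -0.08 without 2) gave weaker values, and after adjustment over the 3 relations p was 0.411 for RNA integrity and 0.747 for the others.

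**Figure D4:**
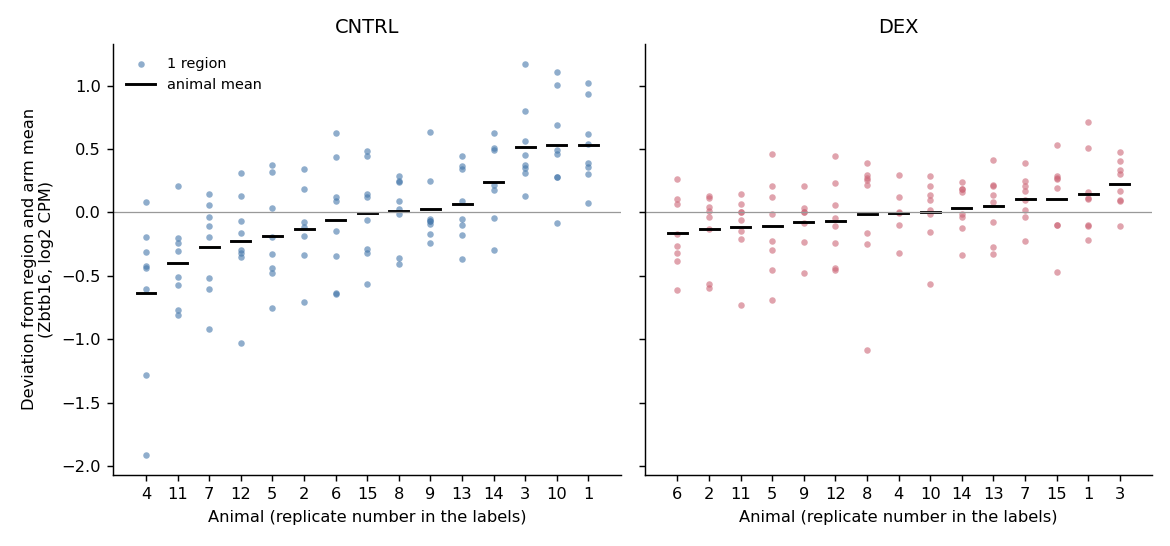
Deviation of Zbtb16 from its region and arm mean in log2 CPM (vertical axis) for each CNTRL animal (left) and DEX animal (right), in order of the animal mean; points are regions and black bars are animal means. CNTRL means run from -0.64 to 0.53, with nearly all regions of CNTRL replicates 1, 3 and 10 above 0, and DEX means run from -0.16 to 0.22.

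Other genes were ranked by how closely their animal deviations followed those of Zbtb16 over 30 animals. None of 7923 genes (0%) passed after adjustment by permutation, with Pearson or with Spearman correlation, and 230 and 307 had an unadjusted p under 0.05. The highest value belonged to Tsc22d3, which encodes the glucocorticoid-induced leucine zipper protein GILZ (r = 0.73, permutation p = 0.00064, adjusted p = 0.747; rho = 0.59, p = 0.00337; r = 0.63 without the 2 farthest animals). Next were Foxo3, a forkhead transcription factor (r = 0.69), Bcl6, a BTB zinc-finger repressor of the same family as Zbtb16 (r = 0.68), Gpt2, a mitochondrial alanine aminotransferase (r = 0.68), and Smim3, a small membrane protein (r = 0.68). Their permutation p ranged from 0.00029 to 0.00196 and their rho from 0.44 to 0.61, with r between 0.47 and 0.69 without the 2 farthest animals. These values came mainly from CNTRL animals, where r was 0.78 for Tsc22d3, 0.75 for Foxo3, 0.82 for Bcl6, 0.80 for Gpt2 and 0.76 for Smim3. In DEX animals r was 0.10, 0.44, -0.23, 0.16 and -0.29 in the same order, so Bcl6 and Smim3 changed sign. The lowest were Zfp932 (r = -0.63), Map6d1 (r = -0.61) and Kdr, the main endothelial receptor of VEGF (r = -0.55), with unadjusted permutation p of 0.00092, 0.00059 and 0.0104. Their rho was -0.31, -0.58 and -0.50, and r without the 2 farthest animals was -0.43, -0.52 and -0.39. Zfp932 had r = -0.87 in CNTRL and 0.38 in DEX animals, Map6d1 -0.83 and -0.001, and Kdr -0.59 and -0.40.

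Among 14 known glucocorticoid-responsive genes measured in every region, the median r to Zbtb16 over animals was 0.52. Over all 7923 genes it was -0.02, with 5th and 95th percentiles of -0.29 and 0.27. The 14 genes were listed with earlier results of these data known. In the 15 CNTRL animals alone the median for the list was 0.60 (all genes -0.01, with a 95th percentile of 0.40), and 12 of the 14 were above that percentile. In the 15 DEX animals it was 0.07 (all genes -0.04, with a 95th percentile of 0.46), and 1 of 14 was above. Tsc22d3 had r = 0.78 in CNTRL animals (permutation p = 0.00078, adjusted over all genes 0.634; rho = 0.73, p = 0.00324; r = 0.69 without the 2 farthest animals). In DEX animals it had r = 0.10 (permutation p = 0.732; rho = 0.20, p = 0.466; r = -0.11 without 2). Fkbp5, a co-chaperone of the glucocorticoid receptor, had r = 0.71 (permutation p = 0.00302; rho = 0.63, p = 0.0133; r = 0.65 without 2) in CNTRL animals, with an adjusted p of 1.00. After adjustment 0 of 7923 genes passed in CNTRL animals alone in this permutation test, where 267 had an unadjusted p under 0.05, and 0 in DEX animals alone, where 743 did. In DEX animals Fkbp5 had r = 0.11 (permutation p = 0.707; rho = 0.02, p = 0.943; r = -0.13 without 2). The difference between the arms was not tested, and the narrower spread of DEX animals stands beside it.

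Across the 16 means of region and arm, the genes most like Zbtb16 were Smim3 (r = 0.96), Mxd4, a MAX-binding repressor (r = 0.95), Dusp18, a dual-specificity phosphatase (r = 0.92), Hipk1, a nuclear kinase (r = 0.92), and Stt3b, a catalytic subunit of the oligosaccharyltransferase (r = 0.91). These r values are descriptions: the 16 means share animals and the 2-arm contrast. Over the 8 CNTRL means alone, r was 0.88, 0.85, 0.90, 0.78 and 0.92 in the same order, and over the 8 DEX means it was 0.66, 0.47, 0.55, 0.47 and 0.085, lower for each of these 5. Since the 16 means include the drug contrast, the choice of these genes largely fixes the direction of their change, which is given without a test. The log2 fold change of Smim3 was 1.09 to 2.38, and its level was 10.9 ± 4.89 CPM in PVN (SD, n = 14) and 37.0 ± 11.7 CPM in dDG (SD, n = 15) of CNTRL animals. Over the 8 regions the log2 fold change of Mxd4 was 0.58 to 1.20, that of Hipk1 0.32 to 0.63, that of Dusp18 0.24 to 1.38 and that of Stt3b 0.11 to 0.49. The least alike were Nrarp, a feedback inhibitor of Notch signalling (r = -0.89), Sox2, a transcription factor of neural progenitors and astrocytes (r = -0.88), and Flt1, a VEGF receptor of endothelium (r = -0.88). Their r was -0.88, -0.52 and -0.74 over the CNTRL means and -0.87, -0.84 and -0.23 over the DEX means. Their log2 fold changes were -0.84 to -0.10, -1.48 to -0.91 and -0.80 to -0.55 in the same order.

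The glucocorticoid response list held 19 genes besides Zbtb16. Of 123 tests over the 8 regions, 110 were called higher and 0 lower, with a median log2 fold change of 1.04. The list was chosen with earlier results of these data known, so its share called higher is a description and not a test. Over all genes and regions, 3.23% of 71817 tests were called higher and 1.94% lower, and the median log2 fold change of all genes was between -0.02 and 0.00 in every region. Cdkn1a, a cell-cycle inhibitor, rose by 1.95 log2 in PFC to 3.59 in AMY. Fkbp5 rose by 1.65 in dDG to 2.79 in PFC, and Errfi1, an inhibitor of EGF receptor signalling, by 1.34 to 2.00. Nfkbia, an inhibitor of NF-kappa-B, rose by 1.15 to 1.66 and Ddit4, an inhibitor of mTORC1, by 0.96 to 1.72. Tsc22d3 rose by 0.85 in CER to 1.39 in dCA1.

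The regional order of Zbtb16 was compared with that of the list. Of the 14 other listed genes tested in all 8 regions, 5 had their smallest log2 fold change in dDG, as Zbtb16 did, and 8 had dDG among their lowest 2 regions. PVN had the largest change in 3. In 1 of 14 were PVN, AMY and CER the highest 3. The range of log2 fold changes over regions was 1.39 for Zbtb16, below that of Cdkn1a (1.64) and above those of Fkbp5 (1.14) and Mertk (0.93), a receptor kinase of phagocytes and astrocytes. In the region-by-arm test, Cdkn1a (adjusted p = 5.09e-13), Fkbp5 (4.34e-11), Mertk (0.00133), Ddit4 (0.0257) and Sgk1, a serum- and glucocorticoid-regulated kinase (0.0479), also passed in edgeR.

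**Figure D5:**
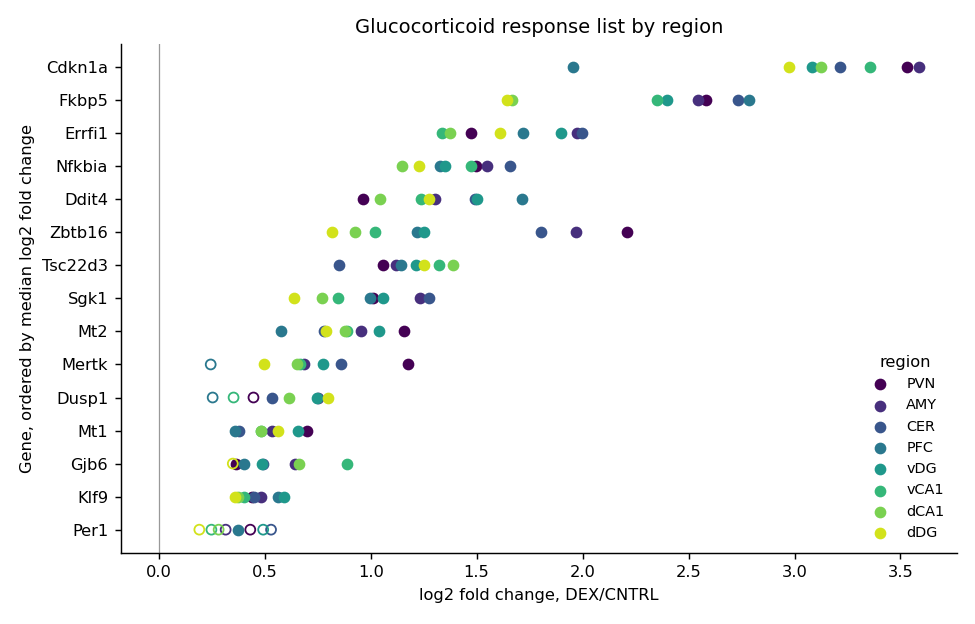
Log2 fold change (DEX against CNTRL, horizontal axis) in each of 8 regions for Zbtb16 and 14 genes of the glucocorticoid response list, ordered by their median; filled points passed the edgeR test and open points did not. Zbtb16 runs from 0.82 in dDG to 2.21 in PVN, with PVN, AMY and CER apart from the other 5 regions.

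Nr3c1, the glucocorticoid receptor gene, was called lower in 8 of 8 regions, beside 1.94% of all tests, from -0.50 ± 0.08 log2 in PVN (SE; edgeR, adjusted p = 8.77e-06) to -0.89 ± 0.11 in PFC (SE; edgeR, adjusted p = 2.39e-08). Nr3c2, the mineralocorticoid receptor gene, was called in 0 of the 7 regions where it was tested by edgeR, with values from -0.42 to -0.14 and an unadjusted p of 0.0314 in vDG and over 0.05 in the other 6.

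The BTB zinc-finger family of Zbtb16 had 47 other listed members. Their 193 tests gave 7 called higher and 1 lower, with a median of -0.02 log2, beside 3.23% called higher and 1.94% lower over all genes and regions. The share called higher was near that of all genes. Bcl6 accounted for 4 of the 7: it rose by 1.01 ± 0.11 log2 in PVN (SE; edgeR, adjusted p = 8.29e-10), by 0.49 in PFC, by 0.48 in AMY and by 0.35 in dDG, and was not called in the other 4 regions (0.20 to 0.49). With same-numbered animals as a block it also passed in CER (0.41, edgeR, adjusted p = 0.0233) and vDG (0.42, edgeR, adjusted p = 0.0438), and Zbtb7a was lower in dDG (-0.24, edgeR, adjusted p = 0.00715). The PVN level of Bcl6 was 33.4 ± 8.28 CPM in CNTRL libraries (SD, n = 14) and 67.9 ± 6.84 CPM in DEX libraries (SD, n = 15). The other calls were Zbtb1 in vCA1 (0.64), Zfp131 in AMY (0.32) and Zbtb20, a regulator of hippocampal neuron identity, in PVN (0.25). Zbtb18, a repressor of neuronal development genes, was lower in dCA1 (-0.39).

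Genes whose proteins bind PLZF, or in the case of Rara its leukaemia fusion partner, gave 12 listed genes. Over 80 tests, which included the corepressor Ncor1, histone deacetylases, the ubiquitin ligase scaffold Cul3 and Rara, 1 test passed: Ep300, an acetyltransferase, rose by 0.30 ± 0.08 log2 in CER (SE; edgeR, adjusted p = 0.0123). With same-numbered animals as a block, the deacetylase gene Hdac4 also passed in dCA1 (0.35, edgeR, adjusted p = 0.0197) and vDG (0.38, edgeR, adjusted p = 0.0112). Of 14 genes within 500 kb of Zbtb16 on chromosome 9, Rexo2, Rbm7, Zw10 and Usp28 had enough counts in at least 1 region. Those 25 tests gave 0 calls in edgeR, with a median of -0.04 log2. Beside 3.23% of all tests called higher and 1.94% lower, nothing is read from these small counts. Nnmt and Htr3a, which flank Zbtb16 at 49.2 and 63.3 kb, had 116 and 425 counts over all libraries together and were not tested.

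Several cell-type marker sums moved with the arm, and their part in the Zbtb16 result was not tested. Over 112 permutation tests of 14 lists in 8 regions, the microglial sum was lower in 8 of 8 regions, by 0.83 to 1.05 log2, with all 5 genes detected. Means of Cx3cr1 (the highest of the list in CNTRL libraries), P2ry12 and Tmem119 were lower in DEX libraries of all 8 regions. C1qa means ran from 34.8 to 68.1 CPM in CNTRL and from 33.8 to 63.4 CPM in DEX libraries. They were lower in DEX libraries of every region except PVN. Csf1r means were lower in DEX libraries of AMY, CER, dCA1, dDG and vDG, and higher in PFC, PVN and vCA1. In PVN the microglial sum ran from 180 to 256 CPM in CNTRL and from 87.3 to 175 CPM in DEX libraries, opposite in direction to Zbtb16. The endothelial sum was lower in 8 of 8 regions by 0.39 to 0.61 log2, with all 5 genes detected: means of Flt1, Slco1a4 and Cldn5 were lower in DEX libraries of all 8 regions and those of Pecam1 in 7, while those of Ly6c1 were higher in all 8. This sum ran from 300 to 405 CPM in PVN CNTRL and from 199 to 299 CPM in PVN DEX libraries. The striatal sum was higher in DEX libraries of CER, PFC, PVN and vDG by 0.20 to 0.54 log2, the cortical sum was lower in AMY, dCA1, dDG and vCA1 by 0.25 to 0.52, and the dentate sum was lower in CER by 0.47. Of the T and natural killer cell markers, 4 of 5 were in the table, their summed median was 0 CPM in both arms of every region, and no library exceeded 5.20 CPM.

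Marker sums of choroid plexus, cerebellum and hypothalamic peptides varied widely between libraries of 1 region, and the Zbtb16 change was computed with them in the fit or without the libraries concerned. The hypothalamic peptide sum ran from 17.5 to 2082 CPM in PVN CNTRL libraries and from 4.88 to 2850 CPM in PVN DEX libraries. With this sum as a covariate, added after the data had been seen, the log2 fold change in PVN was 2.20 ± 0.15 (SE; edgeR, adjusted p = 2.38e-15). With the choroid plexus level as a covariate, added after the data had been seen, the log2 fold change was 0.77 in dDG (edgeR, adjusted p = 0.000946) and 0.93 in vCA1 (adjusted p = 7.21e-07). Without the 1 vCA1 library that carried cerebellar markers, the vCA1 value was 0.99 (edgeR, adjusted p = 4.25e-07).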

How the data were processed

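The authors deposited whole-number counts per gene for 118 CNTRL and 117 DEX libraries. Per the submitters' processing notes, the tools were cutadapt, STAR 2.6.0a, UMI-tools 0.5.4, featureCounts 1.6.4 and DESeq2 1.30.1, with mm10; use of strand is not given in the sources used here. The deposited log2 values are variance-stabilised tables of 228 libraries, used as an alternative only. Symbols from GENCODE M21 covered 27645 identifiers.

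Each region was fitted with edgeR 4.0.16 (R 4.3.3): genes passing filterByExpr, TMM scaling, quasi-likelihood test without covariates, Benjamini-Hochberg over all genes, threshold 0.05. Printed CPM use 1 TMM scaling over all libraries, so they differ slightly from the scaling of each fit; log2 CPM has a prior count of 2. Permutation tests (scipy 1.17.1, numpy 2.4.6) drew 100000 permutations. Sign-flip tests, planned with 100000 flips, enumerate every flip. The AMY fit and the region-by-arm fit were run on simulated counts with a fixed dispersion and no animal effect. Such counts cannot check how the fits handle animals or pairs. Replicates are separate animals. Same-numbered animals of the arms shared the plate in 115 of 115 pairs of libraries and the punching date in 109, per the labels, so the numbers pair them; the fits without the block are the main ones, as planned. Pairs of libraries of a group differed beyond counting noise (chi-square over degrees of freedom of 1.34 or more), so none was counted as a repeat.

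The genes and lists were chosen with earlier results of these data known. Named genes are Zbtb16, both receptors, up to 6 called members of each list in each direction, and the 5 most and 3 least alike by correlation; Nnmt, Htr3a, Sgk1 and Mertk were named after their values were seen. Alternatives were upper-quartile scaling, DESeq2 1.42.0, other filters, thinned counts, covariates and a replicate block.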

Additional observations from a re-analysis of the deposited data

Results flagged for a closer look

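The relative response of Zbtb16 differed between regions under the same drug contrast. The test of the region-by-arm terms themselves gave an adjusted p of 8.49e-13 in edgeR (F = 15.3, libraries of 30 animals). The largest difference between a pair of regions was dDG minus PVN, at -1.19 log2 (SE 0.17, 29 animals, permutation test, adjusted p = 7.0e-05). On the CPM scale the same pair differed by -11.1 (SE 8.17, permutation test, adjusted p = 0.319), and by -12.8 (SE 5.09, exact test of same-numbered pairs, adjusted p = 0.0746).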

How the results depend on the processing

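The rise of Zbtb16 kept its direction and its call in all 8 regions under every alternative run (10 to 13 a region), with adjusted p up to 0.00735. A minimum of 10 counts in every library kept Zbtb16 only in dDG, PFC and vCA1. Differences of the variance-stabilised values, whose scale is not a fold change, were smaller (0.59 in dDG to 1.14 in AMY) and passed; there, as with thinned counts, PVN (1.06) came after AMY and CER (1.12). With the replicate number as a block the log2 fold change was 1.99 in AMY, 0.82 in dDG and 2.25 in PVN, the partner list had 3 calls in place of 1, and calls over all genes in dDG were 543 in place of 316. In the lists the block also changed calls of Bcl6, Hdac4, Zbtb7a, Dusp1 and Per1, each in 1 to 4 regions, and no call of Zbtb16. That list had 2 with punching date and plate as factors. The difference among regions passed in all 5 other models (DESeq2 and edgeR), and the SD of the absolute response, 7.67 CPM, did not (permutation p = 0.0521), though it did within same-numbered pairs (8.39 CPM, exact permutation p = 0.0146). With library totals, 2 pairs of regions differed in absolute response in place of 0. With thinned counts, 3 pairs differed in DEX level in place of 8. The cause was not tested. In DEX animals alone the correlations of Bcl6 (-0.23), Smim3 (-0.29) and Zfp932 (0.38) with Zbtb16 had the opposite sign. Depth limits single libraries: Zbtb16 had 1 to 116 counts in each.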
